A study of Homo sapiens with 18 samples.

Results

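The complement genes C3, CFB, CFI, C1R, C1S, C4A, C4B, CD55 and CD59 were followed in LNCaP cells, an androgen-responsive human prostate cancer line. They were chosen by name, as 9 of the 28100 genes of the count table, and each was read from the RefSeq transcript with its highest total count. Of the 9, 8 had enough counts to be tested among 17037 genes, and CFI did not. The RNA came from 6 groups of 3 libraries, all from wild-type LNCaP cells held for 48 h in their treatment medium after a pre-incubation in 1% heat-inactivated serum. The control group received RPMI medium with 10% heat-inactivated serum. The M0, M1 and M2 groups received medium conditioned by macrophages made from THP-1 monocytic leukaemia cells, unpolarised (M0) or polarised to M1 or M2, diluted 1:4 into that same medium. The M1+DMSO group received M1 medium with the solvent DMSO, and the M1+IKK16 group received M1 medium with IKK16 at 0.7 μmol/l, which inhibits the IκB kinases of the NF-kB pathway. No group received IKK16 or DMSO without M1 medium, and all macrophages derived from 1 cell line. Replicates were numbered in the labels without a statement that they were separate cultures, so each p-value speaks only of the variation among these libraries, part or all of which could be technical.

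Complement is a cascade of plasma proteins that tags and lyses cells. In the classical pathway the proteases C1r and C1s, carried by C1q, cleave C4 and C2, and the fragments assemble into an enzyme that cleaves the central component C3. In the alternative pathway factor B (CFB) binds activated C3 and, once cut by factor D, forms a second C3-cleaving enzyme that amplifies the cascade. Factor I (CFI) inactivates C3b and C4b, CD55 speeds the decay of the C3-cleaving enzymes at the cell surface, and CD59 blocks assembly of the membrane attack complex. The liver is the main source of the plasma components, and many epithelial cells make them in response to inflammatory cytokines. Epithelial tumour cells commonly carry CD55 and CD59.

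C4A and C4B are neighbouring, near-identical genes in the major histocompatibility complex, and the places where they differ decide which of them a read can be counted for. In the transcripts of GENCODE 29 that match the RefSeq records counted here, 5414 of 5427 aligned bases (99.76%) were identical. Of the 13 differences, 5 fell within 17 bases of exon 26, the stretch known for setting the C4A and C4B isotypes. Both sequences are shown on the plus strand of GRCh38, at chr6:31996063-31996111 for C4A and chr6:32028801-32028849 for C4B, in coding exon, with the differing bases in capitals.
C4A: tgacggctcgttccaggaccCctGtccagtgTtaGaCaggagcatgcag
C4B: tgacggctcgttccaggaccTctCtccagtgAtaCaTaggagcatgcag
Most reads from these genes cannot be assigned by sequence to either of them, and the sources used here do not give how such reads were counted. A further RefSeq record for each gene (LOC110384692 for C4A, C4B_2 for C4B) carried the same counts as its partner in every library. The separate values of C4A and C4B are therefore uncertain, and their sum is given beside them.

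M1 medium raised complement transcripts of both pathways, C3, CFB, C1S, C4A and C4B from near 0 and C1R and CD59 from clear control levels. M0 and M2 medium left most of them near control. Against control, 7 of the 8 tested genes were higher in M1 (C3, CFB, C1R, C1S, C4A, C4B and CD59, all by at least 2-fold) and CD55 was lower. Over all 17037 tested genes 32.9% were higher and 31.9% lower in that comparison, and 1748 genes were higher by at least 2-fold. The median log2 fold change was 7.18 over the 8 genes, or 6.92 with C3 at its lower bound, beside 0.00 over all tested genes. C3, C4A and C4B passed the count filter only through the groups with M1 medium, where they were high. CFI stayed low and was dropped. Counts of higher genes and medians for the M1 groups against control, M0 and M2 thus draw in part on genes let in by that rise. The plot of every library shows the 3 groups with M1 medium apart from the other 3 for C3, CFB, C1R, C1S, C4A and C4B.

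**Figure D1:**
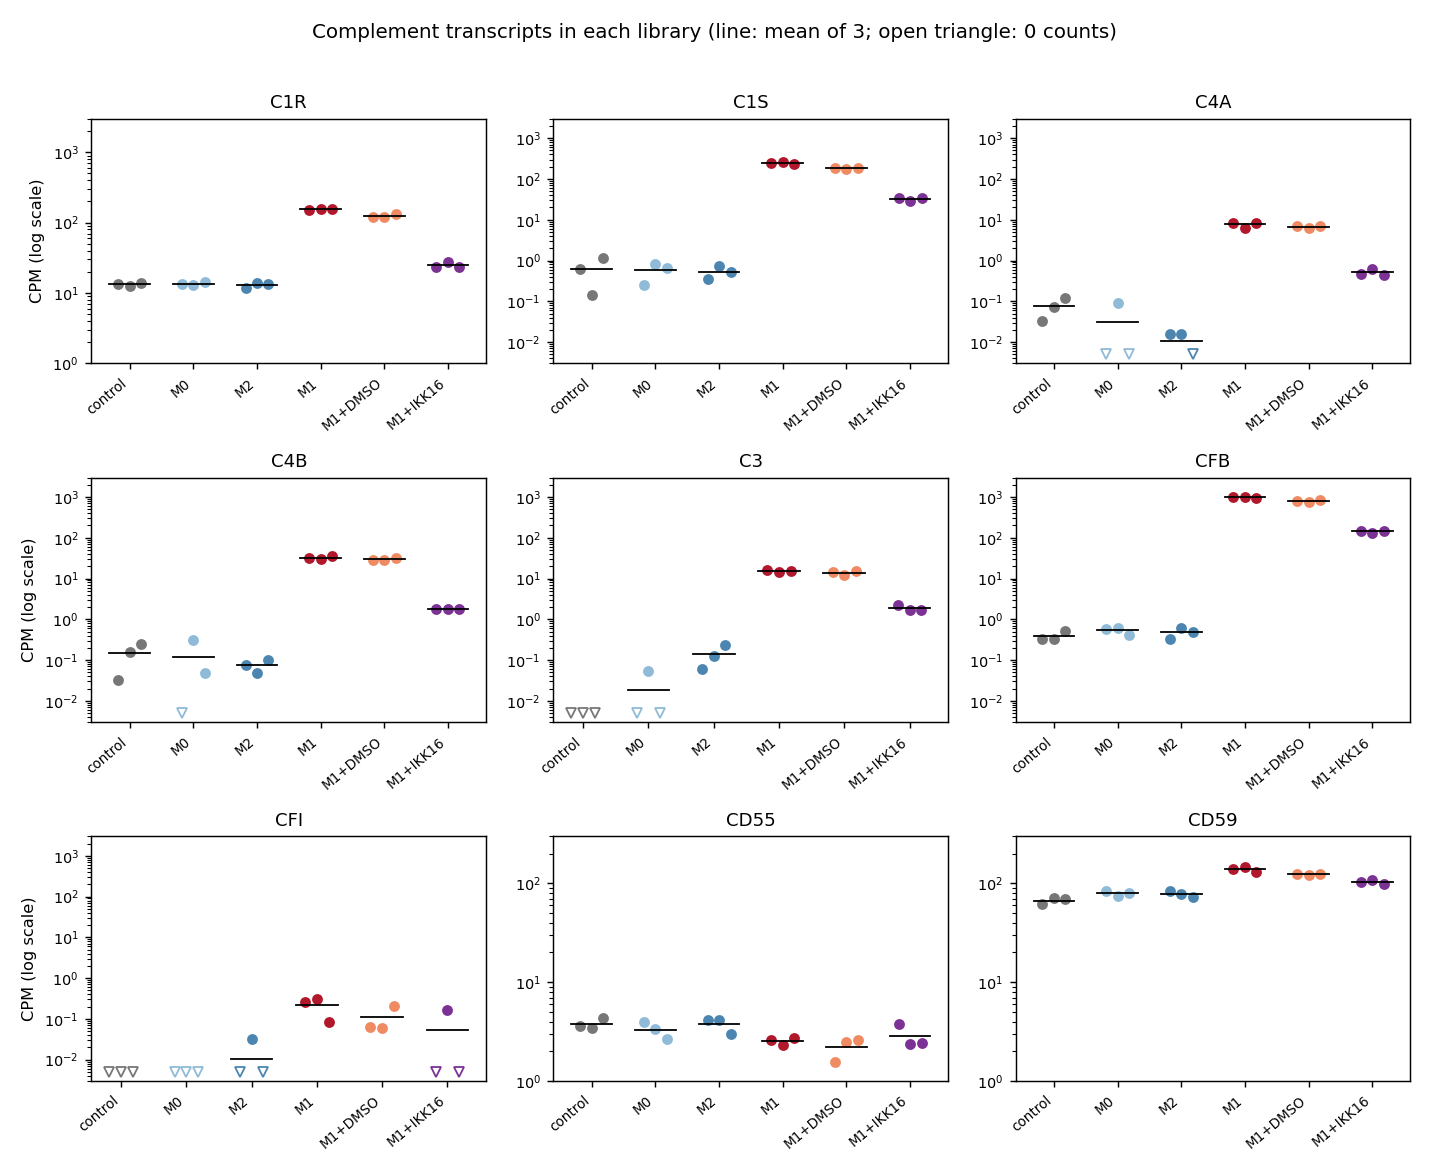
CPM (counts scaled to library size, log scale) of the 9 complement genes in each of the 18 libraries by group, with the mean of 3 libraries as a line and libraries with 0 counts as open triangles at the foot of the axis. CFB reached 946 to 1020 CPM in M1 from 0.33 to 0.509 CPM in control, whereas CD55 stayed between 1.56 and 4.32 CPM in all groups.

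CFB, the protease precursor of the alternative pathway, had the highest level of the 9 genes in M1. Its 3 control libraries held 0.33, 0.335 and 0.509 CPM (the count unit of edgeR on TMM-scaled library sizes), and its 3 M1 libraries held 1010, 1020 and 946 CPM. The groups were far apart, and the rise was 2480-fold (log2 fold change 11.28 ± 0.11 SE, edgeR adjusted p = 3.12e-27). The control libraries held 36 counts in all, so this SE, which is derived from the test, understates the uncertainty of the rise. By the size of the fitted rise it ranked 12 among the 17037 tested genes. Per kilobase of transcript, CFB moved from place 15264 in control to place 131 in M1 among 16204 tested genes with a known length. It lies on chromosome 6 (31946095 to 31952084, GRCh38.p14), upstream of C4A and C4B in the same region.

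C3, the component on which the pathways converge, had 0 counts in each of the 3 control libraries, a level of at most 0.0926 to 0.106 CPM by the limit of 3 counts. In M1 the libraries held 514.5, 419.5 and 456.5 counts, or 16.3, 14.3 and 14.9 CPM. Against that limit in control the rise was at least 153-fold (edgeR adjusted p = 1.58e-16). M2 medium gave 2, 4 and 6 C3 counts, and M0 medium gave 1.5 counts in 1 library and 0 in the others. The 12 counts in M2 against 0 in control passed the test (edgeR adjusted p = 0.0239, at least 1.44-fold higher), but not without control replicate 1 (0.0981), control replicate 3 (0.0595) or M2 replicate 2 (0.0616).

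C1R and C1S, the paired proteases of the first classical component, started from different levels. C1R was already present in control at 13.4, 12.4 and 14 CPM and reached 151, 158 and 158 CPM in M1, an 11.7-fold rise (log2 fold change 3.55 ± 0.08 SE, edgeR adjusted p = 1.93e-21). C1S was at 0.61, 0.141 and 1.16 CPM in control and at 244, 260 and 229 CPM in M1, a 369-fold rise (log2 fold change 8.53 ± 0.19 SE, edgeR adjusted p = 7.61e-21). Neither gene had overlapping values between the groups. The control values of C1S differed widely among themselves, resting on 18.5, 4 and 37.5 counts, while C1R had 352 to 452.5 counts. Without control replicate 3 the log2 fold change of C1S was 9.33. The level of C1S per kilobase was 0.0393 ± 0.0302 (SD, n = 3) of that of C1R in control and 1.32 ± 0.0907 (SD, n = 3) of it in M1. The proteins act as a tetramer with equal numbers of each, and the transcripts moved from strongly unequal to near equal levels. These genes lie next to each other on chromosome 12 (C1S 7060718 to 7071032, C1R 7080219 to 7092445).

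C4A had 1, 2 and 4 counts in the control libraries and 267, 189 and 256 counts in M1, with mean levels of 0.0757 ± 0.0454 and 7.75 ± 1.14 CPM (SD, n = 3). C4B had 1, 4.5 and 8 counts in control and 1001, 886.5 and 1071.5 counts in M1, with mean levels of 0.146 ± 0.107 and 32.3 ± 2.47 CPM (SD, n = 3). Every M1 library exceeded every control library for each gene. The rises were 95.6-fold for C4A (6.58 ± 0.29 SE on the log2 scale, edgeR adjusted p = 1.77e-14) and 220-fold for C4B (7.78 ± 0.22 SE, edgeR adjusted p = 4.68e-19). Without control replicate 3, which held 8 of the 13.5 control counts of C4B, its log2 fold change was 8.50. That lies above its 95% interval in the main fit (7.32 to 8.24). On so few control counts the SEs understate the uncertainty of both rises. Added as 1 gene, C4A and C4B rose by 7.48 ± 0.22 SE on the log2 scale (edgeR adjusted p = 1.24e-18), with the same limit. C4A held 19.4% of the 3671 C4 counts in M1 (exact 95% binomial interval 18.1 to 20.7%), 18.8% in M1+DMSO (17.4 to 20.2%) and 22.1% of 174 counts in M1+IKK16 (15.9 to 28.7%). The share of C4A thus differed between these groups by less than their counting intervals. Those intervals take each count as a read assigned to 1 gene, which the sources do not show. Single M1 libraries ran from 17.6 to 21.1%.

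CFI, the soluble protease that inactivates C3b and C4b, stayed at or near 0. It had no count in any control or M0 library, 8, 9 and 2.5 counts in M1, 0, 1 and 0 in M2, 1.5, 2 and 5.5 in M1+DMSO and 0, 4 and 0 in M1+IKK16. The M1 mean was 0.214 CPM, at least 2.16-fold above the limit in control. The libraries of M1 did not overlap with those of control, and 2 of the 3 M1 libraries were above the limit of 3 counts. With no filter on low counts CFI was higher in M1 than in control (edgeR adjusted p = 0.00213). It was not called different between IKK16 and DMSO (edgeR adjusted p = 0.573). With 4 counts in all with IKK16 and 9 with DMSO, that comparison cannot decide whether CFI fell.

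The membrane regulators moved little in size beside the components. CD59, the inhibitor of the membrane attack complex, was at 61.3, 71.1 and 69.2 CPM in control and 140, 148 and 132 CPM in M1, a 2.09-fold rise (log2 fold change 1.06 ± 0.06 SE, edgeR adjusted p = 9.39e-13). CD55 was at 3.63, 3.46 and 4.32 CPM in control and 2.6, 2.3 and 2.73 CPM in M1, a log2 fold change of -0.58 ± 0.20 SE (edgeR adjusted p = 0.0134). The CD55 values of the groups did not overlap, but the call was lost without control replicate 3 (edgeR adjusted p = 0.0692). Against M0 medium CD55 was not called lower in M1 (-0.36 ± 0.20 SE, edgeR adjusted p = 0.116). In M1 against control the 6 tested components and proteases rose by 11.7-fold or more. CD59 rose least of the 7 genes that were higher, and 9.81% of all tested genes had a larger fitted rise.

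In control the order of the levels per kilobase was CD59 (8.8 CPM per kb), C1R (5.29), CD55 (1.31), C1S (0.214), CFB (0.137), C4B (0.0269) and C4A (0.0139), with C3 and CFI at 0. In M1 it was CFB (346 CPM per kb), C1S (82.1), C1R (62.1), CD59 (18.4), C4B (5.95), C3 (2.88), C4A (1.42), CD55 (0.879) and CFI (0.0991). CD59 thus moved from the highest level to the fourth. Per kilobase CFB stood 121 ± 9.07 times (SD, n = 3) above C3 in M1. The neighbours C1S and CFB in control, and C4A and C4B in control, lay within each other's spread between libraries, whereas no neighbours in M1 did. The length of C1R is that of its other transcript, because the one counted had no match in GENCODE 29.

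M0 and M2 medium address whether the change was shared by media of differently polarised macrophages. With M0 medium 1 of the 8 genes was higher than in control and none lower, beside 6.67% and 5.05% of all tested genes. That gene was CD59, at 84.3, 75.1 and 80.3 CPM (log2 fold change 0.25 ± 0.07 SE, edgeR adjusted p = 0.02). With M2 medium CD59 (0.22 ± 0.07 SE, edgeR adjusted p = 0.0404) and C3 were higher and none was lower, beside 5.28% and 3.49% of all tested genes. The CD59 values of M0 and M2 lay above those of control in all libraries, but each call was lost when some 1 library was left out, as given in the closing section. C1R was at 12.8 to 14.2 CPM in M0 and 11.8 to 13.7 CPM in M2, overlapping the 12.4 to 14 CPM of control, with log2 fold changes of 0.03 (95% interval -0.14 to 0.20) and -0.04 (-0.21 to 0.13). CFB was at 0.41 to 0.624 CPM in M0 and 0.326 to 0.624 CPM in M2, with log2 fold changes of 0.44 (-0.14 to 1.01) and 0.26 (-0.32 to 0.84). The intervals for C4A and C4B are wide, since M2 held 1 and 6.5 counts of them in all and M0 held 2.5 and 10. The C4A libraries of M2 all lay below those of control, on 1 against 7 counts (edgeR adjusted p = 0.0612). Those M2 libraries held 0.5, 0.5 and 0 counts, which were rounded to 0 for the fit. The fitted log2 fold change of -4.21 (95% interval -7.09 to -1.34) therefore does not measure the size of this difference.

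Set directly against M0, M1 medium gave higher levels for 7 of the 8 genes and lower levels for none, beside 34.2% and 33% of all tested genes. Set against M2, 7 were higher and CD55 was lower, beside 34.3% and 33.2%. CFB was 1830-fold above M0 and 2070-fold above M2, and C1R was 11.5-fold and 12-fold above them. CD59 was 1.75-fold above M0 and 1.79-fold above M2. None of the 8 genes was called different between M2 and M0, where edgeR called 0% of all genes higher and 0.106% lower. For C3 the libraries of M2 all lay above those of M0 on 12 against 1.5 counts (log2 fold change 2.31, 95% interval 0.39 to 4.23, edgeR adjusted p = 0.774). At an unadjusted p under 0.05, 931 of the 17037 genes differed in that comparison. These comparisons share their M1, M0 or M2 libraries with those above.

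DMSO in M1 medium went with slightly lower levels of some of these genes than M1 medium alone. CFB was at 779, 772 and 828 CPM with DMSO, below each of the M1 libraries (log2 fold change -0.32 ± 0.06 SE, edgeR adjusted p = 0.00466). C1R (-0.33 ± 0.06 SE, edgeR adjusted p = 0.0063) and C1S (-0.43 ± 0.11 SE, edgeR adjusted p = 0.0288) were also lower, so 3 of the 8 genes were lower and none higher, beside 2.03% and 2.22% of all tested genes. The call for C1S was lost with DESeq2 (adjusted p = 0.518). C3 (-0.11 ± 0.12 SE, edgeR adjusted p = 0.634) and C4B (-0.14 ± 0.11 SE, edgeR adjusted p = 0.486) were not called different. The IKK16 group was therefore set against M1+DMSO.

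With IKK16 the components and proteases fell several-fold and remained above control. Against M1+DMSO 7 of the 8 genes were lower, 6 of them by at least 2-fold, and none was higher. Calls of any size made up 12.9% lower and 14.4% higher among all tested genes, and no share at 2-fold was taken over them. Median log2 fold changes were -2.48 for the 8 genes and 0.01 for all tested genes. Of the 1748 genes that M1 medium raised by at least 2-fold over control, 42.7% were lower with IKK16 and 13.5% lower by at least 2-fold, with a median of -0.36.

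**Figure D2:**
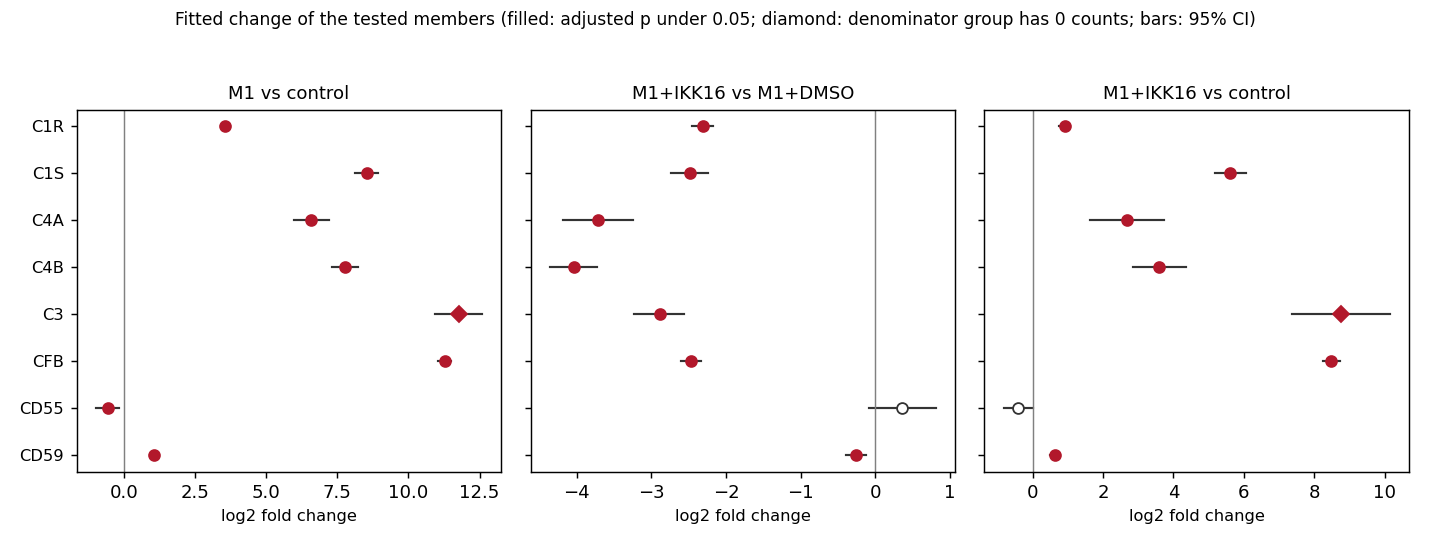
Fitted log2 fold changes of the 8 tested genes in 3 comparisons, with 95% intervals as bars. Against control the bars of C3, CFB, C1S, C4A and C4B are too narrow, since few or no control counts underlie them. Filled symbols passed an edgeR adjusted p under 0.05, and the diamond marks C3 against control, whose libraries held 0 counts, so that its fitted value is no bound. The points for IKK16 against DMSO run from -4.04 for C4B to 0.36 for CD55, which is open.

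The C4 genes fell most. C4B went from 28.7, 28.3 and 31.2 CPM with DMSO to 1.84, 1.76 and 1.75 CPM with IKK16, 16.5-fold lower (log2 fold change -4.04 ± 0.15 SE, edgeR adjusted p = 3.56e-15). C4A went from 6.86, 6.4 and 7.15 CPM to 0.476, 0.613 and 0.438 CPM, 13.1-fold lower (-3.71 ± 0.22 SE, edgeR adjusted p = 5.48e-11). The IKK16 libraries held 11.5 to 15 counts of C4A and 43 to 46.5 of C4B, which limits the precision of these levels. Added as 1 gene C4 fell by 3.98 on the log2 scale (SE 0.16, edgeR adjusted p = 1.26e-14).

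C3 went from 14.7, 12.1 and 15.3 CPM with DMSO to 2.26, 1.7 and 1.67 CPM with IKK16, 7.42-fold lower (log2 fold change -2.89 ± 0.16 SE, edgeR adjusted p = 1.95e-11). CFB went to 147, 134 and 148 CPM, 5.54-fold lower (-2.47 ± 0.06 SE, edgeR adjusted p = 2.92e-18). C1S went from 183, 175 and 186 CPM to 34.6, 28.4 and 33.7 CPM, 5.61-fold lower (-2.49 ± 0.12 SE, edgeR adjusted p = 4.05e-13). C1R went from 119, 119 and 133 CPM to 23.6, 27.4 and 23.6 CPM, 4.97-fold lower (-2.31 ± 0.07 SE, edgeR adjusted p = 8.68e-17). For none of these 4 genes did the IKK16 and DMSO libraries overlap, and no share of all tested genes without overlap was taken. The 95% intervals of the log2 fall of C4A (-4.18 to -3.25) and C4B (-4.36 to -3.73) lie below those of CFB (-2.60 to -2.34), C1S (-2.74 to -2.24) and C1R (-2.46 to -2.17), while that of C3 (-3.23 to -2.56) overlaps those of CFB and C1S and lies below that of C1R. Differences between genes in that fall were not tested.

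CD59 went from 126, 122 and 125 CPM with DMSO to 104, 108 and 99.4 CPM with IKK16 (log2 fold change -0.26 ± 0.06 SE, edgeR adjusted p = 0.00333). CD55 was at 1.56, 2.47 and 2.63 CPM with DMSO and 3.79, 2.37 and 2.42 CPM with IKK16, overlapping groups with a log2 fold change of 0.36 (95% interval -0.09 to 0.81, edgeR adjusted p = 0.234). The first IKK16 library was above the other 2, and the first DMSO library below the other 2.

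The share of the rise that was left with IKK16, taken as the level above control in M1+IKK16 over that in M1+DMSO, placed the C4 genes lowest and CD59 highest. It was 5.6% ± 0.178 for C4B, 6.44% ± 1.37 for C4A, 10.5% ± 2.01 for C1R, 13.4% ± 2.36 for C3, 17.5% ± 1.86 for C1S, 18% ± 0.953 for CFB and 63.7% ± 7.34 for CD59 (SD over 3 IKK16 libraries, with the means of control and DMSO taken as fixed). C4A and C4B lay within each other's spread, as did C1R and C3, C3 and C1S, and C1S and CFB. The share of C1R (9.36 to 12.9%) did not overlap with that of C1S (15.4 to 18.8%). The ratio of C1S to C1R per kilobase was 1.24 ± 0.06 with DMSO and 1.11 ± 0.204 with IKK16 (SD, n = 3), with overlapping libraries.

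**Figure D3:**
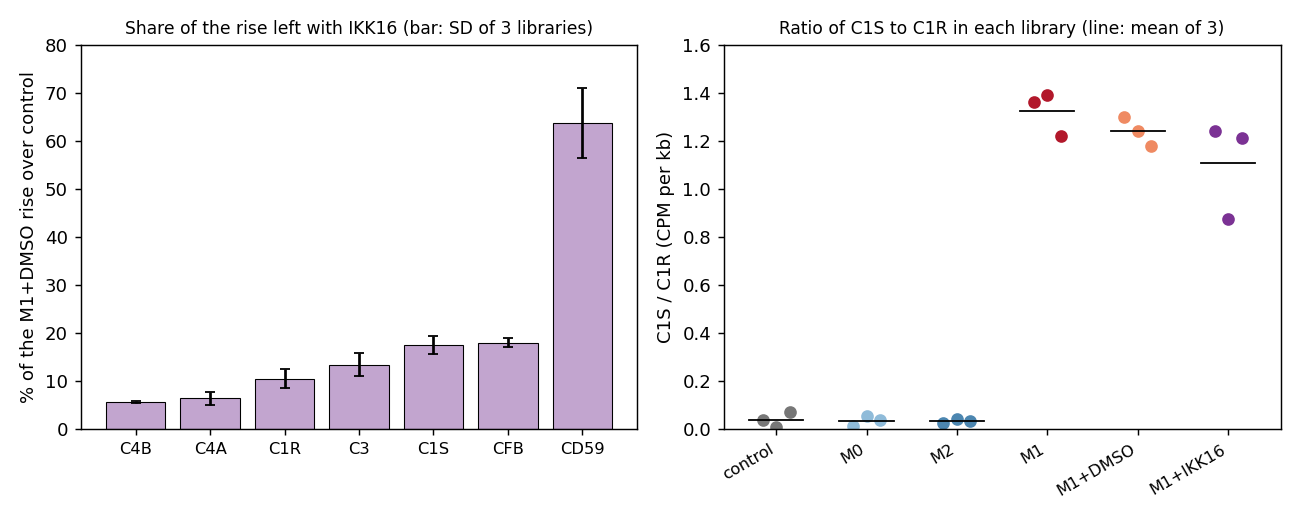
Left, the percentage of the rise over control in M1+DMSO that was left in M1+IKK16 for the 7 genes higher in M1+DMSO than in control, with the SD of 3 IKK16 libraries; it runs from 5.6% for C4B to 63.7% for CD59. Right, the ratio of C1S to C1R in CPM per kb in each library, which lies between 0.00959 and 0.0699 in control and between 1.22 and 1.39 in M1.

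Against control, 7 of the 8 genes were still higher in M1+IKK16 and none was lower, beside 27.1% and 25.4% of all tested genes. CFB remained 358-fold above it (8.48 ± 0.11 SE on the log2 scale, edgeR adjusted p = 8.84e-25), C1S 48.7-fold (5.61 ± 0.21 SE, edgeR adjusted p = 2.39e-16) and C3 at least 18.9-fold (edgeR adjusted p = 3.55e-10). C4B was 12.1-fold (edgeR adjusted p = 1.75e-08) and C4A 6.38-fold (edgeR adjusted p = 0.000128) above control. Without control replicate 3 the log2 fold changes of C1S and C4B were 6.41 and 4.31, in place of 5.61 and 3.60. The SEs of CFB and C1S in this comparison rest on few control counts and are too small. C1R came nearest to control among the components and proteases, at 1.87-fold (0.91 ± 0.08 SE, edgeR adjusted p = 9.32e-10). CD59 was 1.54-fold higher, and CD55 was not called different (-0.41 ± 0.20 SE, edgeR adjusted p = 0.0898). This comparison differs in both the M1 medium and the solvent and inhibitor.

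From high to low, the groups thus stood in the order M1, M1+DMSO, M1+IKK16 and then control, M0 and M2 together for CFB, C1R and C1S. For C3, C4A and C4B, M1 and M1+DMSO lay within each other's spread, and IKK16 came next. For CD59 the order was M1, M1+DMSO, M1+IKK16, M0, M2 and control, of which M1+DMSO was not called different from M1 (log2 fold change -0.17, edgeR adjusted p = 0.119) and M0 and M2 overlapped (log2 fold change of M2 over M0 -0.03, 95% interval -0.17 to 0.10). CD55 ran the other way, with control and M2 highest and the means of the 3 groups with M1 medium lowest, and several of its neighbouring groups overlapped.

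NF-kB target genes in the same libraries served as a check of the inhibitor. M1 medium raised NFKBIA (5.99-fold), TNFAIP3 (40.2-fold), RELB (23.4-fold) and BIRC3 (74.8-fold), each called by edgeR. With IKK16, NFKBIA (log2 fold change -0.16, edgeR adjusted p = 0.0113), TNFAIP3 (-0.96, edgeR adjusted p = 9.71e-10) and RELB (-0.51, edgeR adjusted p = 2.63e-05) were lower than with DMSO, and BIRC3 was higher (0.33, edgeR adjusted p = 5.29e-05). IRF1, a factor of the interferon response, had risen 26.8-fold in M1 medium and was lower with IKK16 (-0.69, edgeR adjusted p = 8.81e-06). Each of the 6 complement components and proteases changed with IKK16 by a larger log2 fold than any of these 5 genes, a difference that was not tested.

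Start-site sequences were read for the members that the RefSeq promoter table (GRCh38.p14) holds, which are CFB, CFI, C1R, CD55 and CD59, with 9 start sites in all. The 250 bases before each start were searched on both strands for 3 motifs known from inflammatory genes. These are the interferon-gamma activated site TTCNNNGAA (GAS), the interferon-stimulated response element (ISRE, a pair of GAAA runs 2 bases apart) and the NF-kB motif. CFB, C1R and CD59 each have a window with a match, shown here with up to 30 bases on the strand of the gene and the match in capitals.
CFB GAS, chr6:31945993-31946021: cgcttggatgTTCCGGGAAagtgatgtgg
CFB ISRE, chr6:31945945-31945974: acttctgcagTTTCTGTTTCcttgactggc
C1R GAS, chr12:7091961-7091989: gccagtcctaTTCCTGGAAggggagggga
CD59 GAS, chr11:33736589-33736617: ccacccggccTTCTCAGAAcctgggccag
The CFB matches begin 92 and 140 bases before its start. The C1R match begins 86 bases before the start of its second listed transcript. The CD59 match begins 128 bases before its first start and 184 before its second, and is the same site in both windows. The windows of C1R start 1 and of CD59 starts 3 and 4 hold no match. Of 35116 windows of that length in the table, 6.57% hold the GAS motif, 3.02% the ISRE and 5.21% the NF-kB motif. None of the 9 windows holds the NF-kB motif, and those of CFI and CD55 hold none of the 3. A match describes letters only, and a missing match says only that the letters are not in that window.

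Other complement genes were counted from a list of 49, of which 15 had enough counts to be tested. In M1 against control 5 were higher, 5 lower and 5 not called, with a median log2 fold change of 0.09, beside 32.9% higher and 31.9% lower among all tested genes. Among the starting proteases C1RL, a C1r-like protease, was 2.73-fold higher (log2 fold change 1.45 ± 0.06 SE, edgeR adjusted p = 1.65e-16). The C1q chains C1QA, C1QB and C1QC, which carry C1r and C1s, had 0 counts in M1 and control. COLEC12, a scavenger collectin, was 2.95-fold lower (-1.56 ± 0.08 SE, edgeR adjusted p = 2.52e-14). CFD, the factor D that cuts factor B, was at 9.82 CPM in control and 3.76 CPM in M1, 2.6-fold lower (-1.38 ± 0.10 SE, edgeR adjusted p = 3.98e-11). CLU, or clusterin, a fluid-phase inhibitor of the terminal complex, rose 25.5-fold from 8.52 to 217 CPM (4.67 ± 0.08 SE, edgeR adjusted p = 3.08e-23).

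C4BPA, a chain of the C4b-binding protein, rose from 0 to 39.5 counts, at least 4.37-fold (edgeR adjusted p = 0.000211). ITGAM, a chain of the receptor for the C3 fragment iC3b, rose 126-fold from 0.154 to 20 CPM (log2 fold change 6.98 ± 0.27 SE, edgeR adjusted p = 1.63e-16), while its partner chain ITGB2 was lower (-0.77 ± 0.25 SE, edgeR adjusted p = 0.0104). Like C3, both C4BPA and ITGAM passed the count filter only through the groups with M1 medium, where they were high. The 2 tested genes of the terminal pathway were not called, and the membrane regulator CD46 stood at 146 CPM in control and 155 CPM in M1 (edgeR adjusted p = 0.223). C2, the partner of C4 in the classical convertase, was 1.77-fold higher by its most abundant transcript, from 12.9 to 22.9 CPM. Another C2 transcript, looked at after its values were seen, went from 2.27 to 13.8 CPM, so the size of the C2 change depends on the transcript read.

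With IKK16 against DMSO, 5 of these 15 genes were lower, 3 higher and 7 not called, with a median log2 fold change of -0.07, beside 12.9% lower and 14.4% higher among all tested genes. CLU was 3.71-fold lower (-1.89 ± 0.07 SE, edgeR adjusted p = 1.46e-15), the 1 gene of the 15 lower by at least 2-fold by the transcripts tested. ITGAM (-0.91 ± 0.14 SE, edgeR adjusted p = 4.45e-05), C2 (-0.88 ± 0.09 SE, edgeR adjusted p = 2.07e-07) and C1RL (-0.58 ± 0.06 SE, edgeR adjusted p = 2.68e-08) fell by less. The other C2 transcript went from 11.5 CPM with DMSO to 3.53 CPM with IKK16, so the size of this fall also depends on the transcript. COLEC12 was higher (0.45 ± 0.08 SE, edgeR adjusted p = 0.000204), and CFD was not called (-0.07 ± 0.11 SE, edgeR adjusted p = 0.7).

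**Figure D4:**
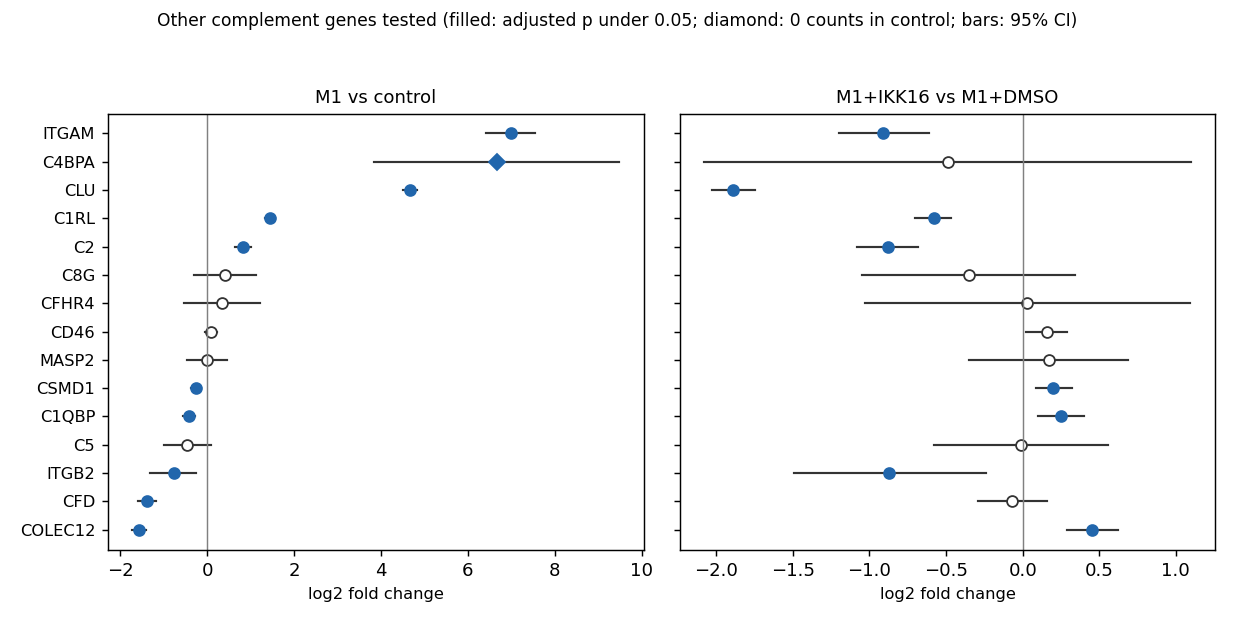
Fitted log2 fold changes of the 15 tested genes of the wider complement list in M1 against control (left) and M1+IKK16 against M1+DMSO (right), with 95% intervals as bars, filled symbols for an edgeR adjusted p under 0.05 and a diamond for C4BPA, which had 0 counts in control. On the left CLU stands at 4.67 and COLEC12 at -1.56, and on the right they stand at -1.89 and 0.45. The left bar of ITGAM rests on few control counts and is too narrow.

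Profiles over the 18 libraries were compared by Pearson's r of log2 CPM among 13090 protein-coding genes that are not among the 9, as a description in which the contrast between groups with and without M1 medium sets most of the value. CFB was most like ZDHHC14 (r = 0.999), CHI3L2 (0.998) and CD74 (0.998). C3 was most like PLD5, EPHX1 and CLU (each 0.989). For C1R the nearest were RASSF4 (0.994), SLC6A14 (0.994) and GUCY1A1 (0.993), and for C1S MYO5B (0.994), RNF11 (0.994) and ITPRID2 (0.993). Beside the duplicate record LOC110384692, C4A was most like SHC2 (0.990) and ACTN1 (0.988), and C4B most like CYP2C18 (0.989) and SERPINA3 (0.988). CD59 was nearest to TFPI (0.988), PMAIP1 (0.986) and SEC11C (0.985), and CD55 to FAM161A (0.876), HOXA6 (0.863) and OXA1L (0.846). The nearest gene to CD55 had a lower r than any gene named for the other 7.

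Gene counts summed to 24202741.5 to 33814818 per library, so that 3 counts, the limit that a count of 0 allows, correspond to 0.0897 to 0.126 CPM. This limit and the intervals on shares cover counting error only. The labelled identity was checked on markers. All 10 prostate luminal and LNCaP markers had counts in every group, summing to 8680 to 9070 CPM in control and 2820 to 2930 CPM in M1, where 7 were lower, 2 higher and 1 not called, beside the 31.9% and 32.9% of all tested genes. The 17 monocyte and macrophage markers summed to 228 to 233 CPM in control and 225 to 245 CPM in M1, mostly CSF1R. PTPRC, MRC1, TYROBP and the 3 C1q chains had 0 counts in M1. Of the 6 tested macrophage markers, 3 were higher in M1 (CD68, LYZ and LAPTM5), 2 lower (SPI1 and CSF1R) and 1 not called. Like C3, LYZ and LAPTM5 passed the count filter only through the groups with M1 medium, where they were high. SPI1 passed only through groups without M1 medium. These counts thus draw in part on genes let in by the difference itself. Over all tested genes 32.9% were higher and 31.9% lower. The 6 hepatocyte markers summed to 2.11 to 2.65 CPM in control and 2.34 to 3.36 CPM in M1. In bulk RNA, fewer cells making a transcript and less of it per cell cannot be told apart.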

How the data were processed

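The authors deposited expected counts per RefSeq transcript of polyadenylated RNA, in multiples of 0.5 and not normalised. The submitters' processing notes name hg38, Trimmomatic, BWA 0.7.17 and HOMER 4.10. The use of strand and of reads with several matches is not given in the sources used here, so reads shared by transcripts or overlapping genes can appear in each. Of 70507 transcripts, 69830 were named by an NCBI RefSeq table (GRCh38.p14) and 343 by GENCODE 29, and 334 unnamed ones, with 0.088 to 0.109% of counts, stayed out. Each gene was read from its most abundant transcript.

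Counts were rounded and tested with edgeR 4.0.16 (R 4.3.3): TMM scaling, filterByExpr (keeping 17037 genes and dropping 11063), then 1 quasi-likelihood fit to the 18 libraries with 6 group means. A call is a two-sided Benjamini-Hochberg adjusted p under 0.05 over all tested genes, in each of 9 comparisons. SE is the log2 fold change over the square root of F, and folds against 0 counts use 3 counts per library. Overlap of libraries between groups was read for the listed genes only, so no share over all tested genes stands beside it. CPM is unrounded, and lengths come from GENCODE 29. Replicates differed by more than sampling noise.

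Named genes are the 9 members, other complement genes called with at least 2-fold change in M1 against control, 5 check genes (a further check gene is not reported here) and the 3 nearest profiles; the C1q chains, C2, CD46 and ITGB2 fall outside this rule and were picked for their role after their values were seen. Members and lists were chosen with earlier results of these data known. Alternatives were DESeq2 1.42.0, median-of-ratios scaling, no filter, 1 CPM in 3 libraries, the 2 groups alone, a replicate block, the longest transcript, removal of a length trend, C4A and C4B added, and each library left out.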

Additional observations from a re-analysis of the deposited data

How the results depend on the processing

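For every comparison the counts of complement genes higher and lower were recomputed under each alternative. Counts for M1+IKK16 against M1+DMSO (7 lower, 0 higher) and for genes higher in M1 (7 against control, M0 and M2) stayed within 1.5 times throughout; without a filter CFI joined the latter, giving 8 each. Leaving out 1 library gave 0 to 1 lower in M1 against control, 0 to 1 higher in M0 against control, 0 to 2 higher in M2 against control, 0 to 1 lower in M1 against M0, 0 to 1 lower in M1 against M2, 1 to 3 lower in M1+DMSO against M1 and 0 to 1 lower in M1+IKK16 against control. Fitting only the 2 groups gave 0 higher for M0 and 0 for M2 against control, and DESeq2 gave 1 for M2, where it gave C3 no adjusted p. The small calls concerned CD59, CD55, C3 in M2, and C1R and C1S in DMSO.

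CD59 in M0 against control lost its call (edgeR adjusted p) without control replicate 1 (0.126), M0 replicate 1 (0.118) or M0 replicate 3 (0.0518). In M2 it lost it without control replicate 1 (0.241), control replicate 3 (0.0551), M2 replicate 1 (0.262) or M2 replicate 2 (0.109). CD55 in M1 against M2 lost its call without M1 replicate 2, M2 replicate 1 or M2 replicate 2, the highest adjusted p being 0.0598. CD55 was called lower in M1 than in M0 without M0 replicate 3 (0.0397) and in M1+IKK16 than in control without M1+IKK16 replicate 1 (0.0124). C1R in DMSO against M1 lost its call without M1 replicate 2 (0.0522) or M1+DMSO replicate 1 (0.0535), and C1S without M1 replicate 1 or 2 or any DMSO library. CD59, not called in DMSO against M1 in the main fit, was called lower there when only the 2 groups were fitted (0.0414). Some uncalled values changed sign when 1 library was left out, and are given here with their range over all alternatives. Against control they were C1R in M0 (-0.01 to 0.07) and M2 (-0.08 to 0.02), CFB in M2 (-0.04 to 0.51) and CD55 in M2 (-0.08 to 0.11). Against M0 it was CD59 in M2 (-0.09 to 0.01). The cause was not tested.

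The single-gene values followed were those called in the main fit and some picked uncalled ones, so they are not all values. Of these 58 values, 43 kept their direction and side of the threshold under every alternative. DESeq2 results without an adjusted p were left out. Same-numbered libraries did not deviate together (45 pairs, r from -0.15 to 0.15), and 6 of 18 libraries were closest to their own number, so the numbers were not used as pairs. With the replicate block 7 genes were higher and 1 lower in M1 against control and 7 lower with IKK16, the same counts as without it. Depth limits C3, C4A, C4B and CFI outside the groups with M1 medium, where a library held at most 12 counts of C4 and 6 of C3.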
